A study of Mus musculus with 2 samples.

Results

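Haemoglobin-rich barcodes, in which adult globin transcripts dominated, were described in single-cell RNA libraries of the mouse basolateral amygdala. A barcode stands for the RNA caught in 1 well, usually from 1 cell. Barcodes with at least 100 unique molecules (UMIs) were taken, and the members were chosen by their globin content: Hba-a1, Hba-a2, Hbb-bs and Hbb-bt together had to make up at least 20% of the UMIs. The rule gave 178 of 5378 barcodes. The vehicle library held 129 of 2923 (4.41%, exact 95% interval 3.70 to 5.22) and the FGF21 library held 49 of 2455 (2.00%, 1.48 to 2.63). The other 2794 and 2406 barcodes of the same library served as the comparison.

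The cells came from adult C57BL/6 mice. 3 mice received vehicle and 3 received FGF21, a liver hormone, in daily doses of 1 mg/kg over 3 days. Amygdala tissue was pooled over the 3 mice of a treatment, digested with pronase in the presence of the transcription blocker actinomycin D, and sorted for tdTomato fluorescence and for viability with Hoechst. The labels name KLB, the co-receptor for FGF21, but do not name the driver of tdTomato. Each treatment had 1 library, so nothing here has a replicate check, and every interval covers counting error only.

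Mature mammalian red cells have no nucleus and make no new RNA. The youngest of them, reticulocytes, still carry messenger RNA inherited from the erythroblast, chiefly for the alpha and beta chains of haemoglobin, and lose it as they mature in the blood. Haem is built by a chain of enzymes that starts with the erythroid aminolevulinate synthase Alas2 and ends with ferrochelatase, Fech, which inserts the iron. Organelles are meanwhile removed by autophagy and by the ubiquitin system.

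The 4 globin genes that chose the barcodes, and Alas2, belong to the erythroid programme, and their promoters are shown because the transcripts of these genes occurred together. Sequences are the 250 bases before the RefSeq start, in GRCm38.p6, 5′ to 3′ on the strand of the gene. Hba-a1 lies on the plus strand, chr11:32283422-32283671. Hbb-bs and Hbb-bt lie on the minus strand, chr7:103827929-103828178 and chr7:103813924-103814173. Alas2 lies on the plus strand, chrX:150547167-150547416. Capitals mark GATAA, the core of a GATA factor site, CACCC, the core of a KLF1 site, CCAAT, the CCAAT box itself, or a TATA-box form spelled ATATAA, and the reverse complement of each. Neighbouring and overlapping matches run together.
Hba-a1: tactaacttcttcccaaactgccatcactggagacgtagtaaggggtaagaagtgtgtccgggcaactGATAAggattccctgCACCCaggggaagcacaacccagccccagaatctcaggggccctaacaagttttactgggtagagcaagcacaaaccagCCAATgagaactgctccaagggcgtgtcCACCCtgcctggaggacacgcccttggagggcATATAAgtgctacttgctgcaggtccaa
Hbb-bs: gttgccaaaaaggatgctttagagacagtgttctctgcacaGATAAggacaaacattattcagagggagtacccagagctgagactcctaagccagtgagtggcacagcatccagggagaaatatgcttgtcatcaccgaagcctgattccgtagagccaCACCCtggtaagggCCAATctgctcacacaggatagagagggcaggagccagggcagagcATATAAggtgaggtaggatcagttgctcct
Hbb-bt: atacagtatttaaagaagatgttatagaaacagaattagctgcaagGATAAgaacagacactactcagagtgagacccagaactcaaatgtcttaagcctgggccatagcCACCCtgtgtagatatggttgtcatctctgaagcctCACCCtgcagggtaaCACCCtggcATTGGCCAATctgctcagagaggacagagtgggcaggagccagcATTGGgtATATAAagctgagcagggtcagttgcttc
Alas2: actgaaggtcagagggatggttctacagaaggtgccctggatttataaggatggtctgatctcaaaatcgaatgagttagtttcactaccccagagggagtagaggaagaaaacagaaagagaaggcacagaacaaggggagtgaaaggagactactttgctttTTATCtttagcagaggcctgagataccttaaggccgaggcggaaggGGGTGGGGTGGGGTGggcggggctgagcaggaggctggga
All of the motifs were found in Hba-a1, Hbb-bs and Hbb-bt, and in Hba-a2, whose promoter matched that of Hba-a1 at all 247 aligned bases. ATATAA began 28 bases before the start in Hba-a1, 30 in Hbb-bs and 29 in Hbb-bt. The Alas2 window held GATAA, on the reverse strand 86 bases before the start, and CACCC on the reverse strand at 40, 35 and 30 bases, but no CCAAT box and no TATA-box form. Of all 32851 RefSeq mouse promoters of this length, 22.6% held GATAA, 52.0% CACCC, 33.8% CCAAT and 9.10% ATATAA on either strand. Counted by gene, with a match in any of its promoters, the shares of 27025 genes were 25.5%, 54.5%, 37.5% and 10.5%. Of the 20 genes outside the 4 adult globin genes with the highest ratios, 13 had a promoter in the table. By the same count GATAA was in 4 of these, CACCC in 8, CCAAT in 8 and ATATAA in 0. A match of letters is a description and not a bound site.

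The haemoglobin-rich barcodes stood apart from all others by a wide gap in globin share. The lowest member shares were 27.9% and then 52.5% in the vehicle library, and 46.7% and then 49.1% in the FGF21 library. The highest shares outside the rule were 2.66% and 1.58% in vehicle, and 1.03% and 0.748% in FGF21. No barcode lay between these values, so a threshold of 10% chose the same members. The median member share was 76.4% in vehicle and 68.5% in FGF21, with highest values of 92.6% and 89.6%. The other barcodes had a median of 9 globin UMIs in vehicle and 7 in FGF21, with at most 54 and 48, and 158 and 222 of them had none. Members held 81.1% of all globin UMIs of the vehicle barcodes and 65.8% of those in FGF21. The libraries shared 12 barcode numbers, and 0 of these were members in both. 2 vehicle members shared a number with an FGF21 barcode outside the rule.

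**Figure D1:**
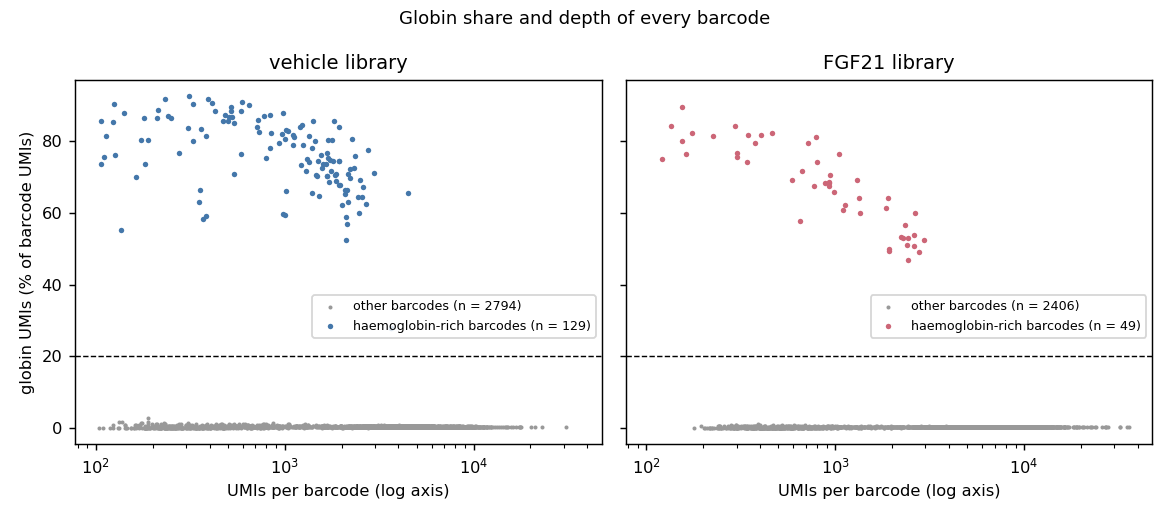
Each point is 1 barcode, with its UMIs on a log axis and the share of its UMIs from the 4 globin genes in percent, by library; the dashed line marks the 20% rule. Coloured members lie at 27.9% and above, while grey barcodes reach at most 2.66%.

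Members were small in RNA and poor in genes. Their UMIs ran from 106 through a median of 1109 to 4490 in vehicle and from 121 through 927 to 2949 in FGF21, against medians of 3906.5 and 5891 in the other barcodes. The median member had 169 genes in vehicle and 241 in FGF21, and the median other barcode 1951 and 2792.5. Without globin, the median member had 208 and 280 UMIs. All members together held 43462 non-globin UMIs in vehicle and 22901 in FGF21, which is the depth behind every level below. Mitochondrially encoded genes made up a median of 1.31% of a member's UMIs in vehicle and 1.87% in FGF21. Counted without globin, the medians were 5.34% and 6.30%, close to 5.78% and 6.15% in the other barcodes. A filter of 500 UMIs, 300 genes and at most 25% mitochondrial UMIs would have kept 47 of the 129 and 20 of the 49.

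The globin transcripts, which the rule used, are given as a description. In vehicle members Hba-a1 made up 33.7% of the globin UMIs, Hba-a2 26.8%, Hbb-bs 28.8% and Hbb-bt 10.8%. In FGF21 members the shares were 32.1%, 26.7%, 29.1% and 12.1% in the same order. Alpha chains, the partners that pair with beta chains in the tetramer, took 60.4% of globin UMIs in vehicle members and 58.8% in FGF21 members. Per barcode the alpha share ran from 47.9% through a median of 60.9% to 93.5% in vehicle and from 45.1% through 59.3% to 83.9% in FGF21. The few globin UMIs of the other barcodes had a lower alpha share, 53.6% and 53.2%. Their Hbb-bt share was 6.73% and 6.51%, and their Hbb-bs share 39.7% and 40.3%. The messenger RNAs of Hba-a1 and Hba-a2 matched at 99.8% of 538 aligned bases and those of Hbb-bs and Hbb-bt at 92.7% of 626, so the split within each pair is uncertain.

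Besides globin, members kept a short list of red cell transcripts at levels far above the other barcodes, while most measured genes lay within 2-fold of them. Levels are UMIs summed over barcodes per 1000000 non-globin UMIs (CPM), so that globin does not lower every other gene. A gene counted as measured when the mean of its UMIs in members and of the UMIs predicted from the other barcodes was at least 10. Of 645 measured genes in vehicle, 91 were at least 2-fold higher in members (14.1%) and 49 at least 2-fold lower (7.6%). Of 262 in FGF21, 38 were higher (14.5%) and 7 lower (2.67%). The median log2 ratio over all measured genes was -0.10 in vehicle and 0.09 in FGF21. Genes counted as higher held 18.6% of the vehicle members' non-globin UMIs and 1.78% in the other barcodes. In FGF21 they held 8.87% and 1.17%. Of the higher genes 29 were shared, 31.9% of the vehicle genes and 76.3% of the FGF21 genes, while 58 of the vehicle genes had too few UMIs in FGF21 to be measured. A gene nearly absent from the other barcodes could be measured only by being high in members.

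**Figure D2:**
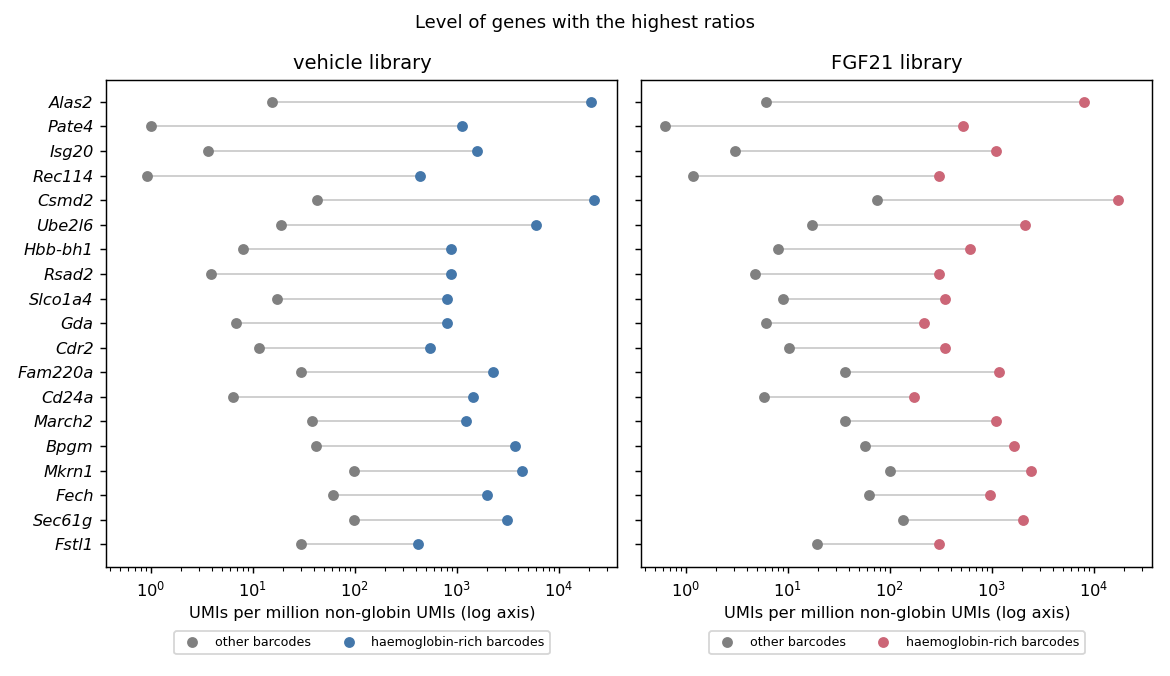
Level of genes outside the 4 adult globin genes with the highest ratios, in CPM of non-globin UMIs on a log axis, for haemoglobin-rich (coloured) and other barcodes (grey) of each library. Alas2 lies at 20731 against 15.3 in vehicle and at 8035 against 6.13 in FGF21.

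Alas2, the erythroid enzyme that starts haem synthesis, was among the most abundant of the kept transcripts. It had 901 UMIs in 94 of 129 vehicle members and 184 UMIs in 30 of 49 FGF21 members, with at most 30 and 18 in 1 barcode. Its level was 1351-fold that of the other barcodes in vehicle (interval 1145 to 1603) and 1310-fold in FGF21 (1012 to 1707). After thinning every barcode to 500 UMIs, Alas2 was found in 86.2% of 94 vehicle members and 1.02% of the others. In FGF21 it was found in 76.5% of 34 members and 0.316% of the others. Genes outside the red cell lists were abundant as well. In members with a globin share of 50 to 80%, Cst3 had 521 UMIs in vehicle and 299 in FGF21. Actb had 243 and 143 there, beside 723 and 142 of Alas2. Isg20, a 3′ to 5′ exonuclease gene induced by interferon and given as an erythroid marker, had 69 UMIs in 39 vehicle members and 25 UMIs in 14 FGF21 members. Its ratios were 435 (290 to 659) and 360 (211 to 601). Both markers were named with earlier results of these data known, so their levels are a description of the members and no support for the red cell label, and they did not go against it.

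The haem synthesis list of 16 genes had a summed level 34.4-fold that of the other barcodes in vehicle and 14.2-fold in FGF21. Without Alas2 the ratios were 8.84 and 4.05. Of the 16 genes, 11 had a UMI in the members of each library. Fech, the last enzyme, had 86 and 22 UMIs and ratios of 32.5 and 15.2. Mitochondrial carriers were also kept. Slc25a37, or mitoferrin, which brings iron into mitochondria, had 109 UMIs in vehicle members but 10 in FGF21 members, at ratios of 14.3 and 3.97. Slc25a39, a mitochondrial glutathione carrier, had 78 and 22 UMIs and ratios of 27.5 and 13.7. Genes of the middle steps had few UMIs. Urod, Cpox and Ppox had 1 to 3 UMIs in each library, and Alad and Uros had 0 in both. Alas1, the form of the first enzyme used outside red cells, also had 0 in both.

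Iron genes had a summed level 3.71-fold that of the other barcodes in vehicle and 2.26-fold in FGF21, with UMIs for 14 of 16 genes in each. Ftl1, the ferritin light chain that stores iron, held 222 of the 449 UMIs of the list in vehicle and 69 of 148 in FGF21. Its ratios were 13.9 (12.1 to 15.9) and 7.36 (5.72 to 9.32). The summed ratios therefore rest in large part on Ftl1. The heavy chain Fth1 was less raised, at ratios of 2.66 and 1.24 (0.885 to 1.70). Ncoa4, the receptor that delivers ferritin to autophagy, had 33 and 4 UMIs and ratios of 8.82 and 2.09 (0.569 to 5.37). Tfrc, the transferrin receptor through which erythroblasts take up iron, had only 1 and 2 UMIs. Pcbp1, an iron chaperone and RNA-binding protein, had ratios of 0.930 and 1.04.

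Ubiquitin and autophagy genes formed another kept group, with summed ratios of 7.09 in vehicle and 3.42 in FGF21 and with UMIs for 18 of 22 and 17 of 23 genes. Ube2l6, an enzyme that conjugates ubiquitin and the interferon-induced modifier ISG15, had 261 UMIs in 75 vehicle members and 49 UMIs in 21 FGF21 members. Its ratios were 321 (266 to 387) and 123 (88.8 to 168). Mkrn1, a ubiquitin ligase, had 190 and 55 UMIs at ratios of 44.5 and 23.8. Ube2o, the enzyme that marks ribosomal proteins for removal in reticulocytes, had 38 UMIs in vehicle at a ratio of 26.9 and 3 in FGF21. Bnip3l, or Nix, which is needed to clear mitochondria from reticulocytes, had 80 and 9 UMIs at ratios of 12.4 (9.79 to 15.5) and 2.53 (1.16 to 4.81). Ubb, a polyubiquitin gene, was at ratios of 4.39 and 3.33. Of the measured genes of the list, 8 of 10 in vehicle and 4 of 5 in FGF21 were at least 2-fold higher. Over all measured genes the shares were 14.1% and 14.5%. Several genes of the list had too few UMIs predicted from the other barcodes and were measured only by being high in members. These included Ube2l6, Ube2o, Mkrn1 and Bnip3l in vehicle, and Ube2l6 and Mkrn1 in FGF21. The counts are therefore a description, and their excess over the shares of all measured genes is no support for the list.

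Genes for translation, messenger stability and globin folding had summed ratios of 4.63 and 2.04, with UMIs for 20 and 17 of 21 genes, the marker Isg20 among them. Tent5c, a poly(A) polymerase, had 161 and 12 UMIs at ratios of 41.8 and 10.2. Pabpc1, the main poly(A)-binding protein, had 195 and 33 UMIs at ratios of 12.9 and 4.28. Tpt1, the translationally controlled tumour protein, had 254 and 56 UMIs at ratios of 7.03 and 2.80. Elongation factor Eef1a1, abundant in all cells, was at 0.842 and 0.788, so the genes of the list did not all lie above the other barcodes. Ahsp, which holds free alpha chains, was not analysed here.

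Ribosomal protein transcripts had summed ratios of 1.27 (1.20 to 1.34) and 1.25 (1.16 to 1.34). 5 of 48 measured genes in vehicle and 5 of 27 in FGF21 were at least 2-fold higher, beside the 14.1% and 14.5% of all genes. Rpl41, the smallest of these proteins, had 64 and 19 UMIs and ratios of 5.43 and 2.69. Rplp0 was at 4.80 and 2.31, and Rpl39 at 2.60 and 2.62. Rps29 was at 1.81 and 1.89.

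Membrane and skeleton genes were thinly covered. Their summed ratios were 4.06 in vehicle and 2.24 in FGF21, with UMIs for 15 and 10 of 25 genes. Epb41, which ties spectrin to actin, had 59 and 16 UMIs at ratios of 26.0 and 12.5. Cd24a, a surface glycoprotein of immature red cells, had 62 UMIs in vehicle at a ratio of 223 but 4 in FGF21 at 30.2 (8.03 to 80.2). Without Cd24a the summed ratios of the list were 2.92 (2.48 to 3.42) and 2.11 (1.60 to 2.72). Slc4a1, the band 3 anion exchanger, had 11 and 0 UMIs. The spectrin gene Sptb had 6 UMIs in vehicle and 0 in FGF21. Bsg, or basigin, was at 1.51 and 1.72. Genes for the main structural proteins of the membrane thus had fewer UMIs than Alas2 or Ube2l6.

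The excess of the glycolysis list rested on 1 gene, and 1 gene held most of the excess of the antioxidant list. Bpgm, which makes the 2,3-bisphosphoglycerate that lowers the oxygen affinity of haemoglobin, had 161 UMIs in 44 vehicle members and 38 UMIs in 15 FGF21 members, at ratios of 89.1 and 28.7. The glycolysis list was at 2.60 and 1.49 with Bpgm and at 0.988 and 0.908 without it. Gapdh and Aldoa were at 0.769 and 1.69 in vehicle and 0.840 and 1.29 in FGF21. Gpx1, the glutathione peroxidase of red cells, had 85 and 28 UMIs at ratios of 18.5 and 11.0, and the antioxidant list was at 2.76 and 1.69 with it and at 1.43 (1.13 to 1.79) and 1.01 (0.701 to 1.40) without it. Prdx2, or peroxiredoxin 2, had 31 UMIs in vehicle at a ratio of 4.60, and 7 in FGF21, where the interval of its ratio ran from 0.603 to 3.10.

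Transcription factors of the red cell line had summed ratios of 1.01 (0.673 to 1.45) and 1.09 (0.598 to 1.84). Gata1 and Klf1, the master factors of the lineage, had 0 UMIs in the members of both libraries. At this depth 0 UMIs allows up to 3, so their absence is not shown. Other globin genes had 78 and 24 UMIs in all, at ratios of 221 and 122. Hbb-bh1, an embryonic beta-like gene, accounted for 38 and 14 of them at ratios of 109 and 76.5. Its longest run shared with adult globin messenger RNA was 22 bases, and whether adult molecules were counted as Hbb-bh1 was not tested. Hba-x and Hbb-y, embryonic alpha-like and beta-like genes, had 10 and 12 UMIs in vehicle and 3 each in FGF21.

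The non-globin gene with the most UMIs in vehicle members was Csmd2. This gene, on chromosome 4 from 127987857 to 128567656 in GRCm38, encodes a large membrane protein of CUB and sushi domains described at synapses. It had 968 UMIs in 115 of 129 vehicle members and 392 UMIs in 45 of 49 FGF21 members, with no more than 25 and 28 in 1 barcode. Its ratios were 526 (470 to 588) and 228 (203 to 256). After thinning it was found in 96.8% of vehicle and 100% of FGF21 members, against 1.81% and 3.65% of other barcodes. It was thus more widely detected among members than Alas2 in both libraries. Its longest run shared with an adult globin messenger RNA was 13 bases, beside 11 in Bpgm, 14 in March2, 18 in Alas2 and 22 in Hbb-bh1. Hmgb4os, annotated on the same strand inside Csmd2 from 128261044 to 128262990, and Csmd2os on the opposite strand had no values of their own here, so their molecules cannot be told apart from those of Csmd2.

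Further genes outside the red cell lists were high in both libraries. Pate4, which encodes a small secreted protein of the male tract, had 49 and 12 UMIs at ratios of 1122 (576 to 2393) and 845 (327 to 2270). Rec114, a meiotic recombination gene, had 19 and 7 UMIs at ratios of 479 and 261. Rsad2, the interferon-induced viperin, had 38 and 7 at ratios of 223 and 63.4. Gda, or guanine deaminase, had 35 and 5 at 118 and 35.6, and Cdr2 had 24 and 8 at 48.0 and 33.8. Fam220a had 98 and 27 at 75.3 and 32.2, March2, a membrane ubiquitin ligase, 54 and 25 at 32.5 and 29.9, and Sec61g, a subunit of the translocon, 135 and 46 at 31.5 and 14.8. Fstl1, a secreted follistatin-like protein, had 18 and 7 at 14.0 and 15.6. Slco1a4, an organic anion transporter usual in brain endothelium, had 35 and 8 at 47.1 and 39.0. The 4 endothelial defining genes Cldn5, Flt1, Pecam1 and Cdh5 had 0 UMIs in the members of both libraries. At this depth 0 UMIs does not show that a gene was absent. Among abundant genes, Gm42418, a locus that overlaps ribosomal RNA sequence, had 809 and 351 UMIs at ratios of 9.82 and 10.3. Oaz1, an inhibitor of polyamine synthesis, was at 11.3 and 8.27, and Ucp2, a mitochondrial carrier, at 4.63 and 5.07.

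The genes lowest in members were led by Malat1, a long RNA held in the nucleus. It had 74 UMIs in vehicle and 48 in FGF21, at ratios of 0.356 (0.280 to 0.448) and 0.417 (0.307 to 0.553). Nuclear-retained RNAs as a list were at 0.387 and 0.534. Other genes of lowest ratio were Ptprz1, a phosphatase of glial precursors (0.442 and 0.455), Plpp3, a lipid phosphatase (0.491 and 0.532), and Maf, a macrophage transcription factor (0.525 and 0.505). Siglech and Ly86, both of microglia, were at 0.441 and 0.507 in vehicle and at 0.610 and 0.629 in FGF21. Hsp90b1 and Enpp2 were at 0.537 and 0.633 in vehicle and at 0.619 and 0.462 in FGF21, and mt-Nd4l at 0.588 and 0.424.

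Transcripts of brain cells were also present in members. Microglia markers, 11 of 11 of them detected, had 1387 UMIs in vehicle members and 554 in FGF21 members, at summed ratios of 0.823 (0.781 to 0.868) and 0.941 (0.864 to 1.02). The count per barcode was far lower than in the rest, at 10.8 and 11.3 UMIs against 152 and 155. Csf1r, the receptor on which microglia depend, was at 0.972 and 1.10, and C1qb, a complement chain, at 1.00 and 1.37. Oligodendrocyte markers were at 0.561 (0.449 to 0.694) in vehicle and 0.861 in FGF21, and oligodendrocyte precursor markers at 0.559 (0.467 to 0.663) and 0.701. Astrocyte markers were at 0.772 and 0.879 and mural markers at 0.879 and 1.12. The endothelial list was higher, at 2.35 (1.83 to 2.99) and 2.20 (1.45 to 3.21), and without Slco1a4 it was at 1.17 (0.806 to 1.65) and 1.58 (0.948 to 2.46). Only 3 of its 8 genes in vehicle and 4 in FGF21 had a UMI in members. Besides Slco1a4 in vehicle, Bsg was the only measured gene of the list, and Bsg is also counted in the membrane and skeleton list. Mitochondrially encoded genes were at 0.834 and 0.926. The part of RNA from other cells in these values was not tested. Neuron markers had 9 and 7 UMIs, at 1.10 (0.503 to 2.10) and 1.46 (0.587 to 3.01). Markers of other blood cells had very few. Neutrophil and monocyte markers had 0 and 1 UMIs, at 0 (0 to 1.64) and 2.55 (0.0644 to 14.4). Lymphocyte markers had 1 and 1, at 0.973 (0.0245 to 5.47) and 1.49 (0.0377 to 8.37). Platelet markers had 1 and 2, at 0.505 (0.0128 to 2.83) and 3.86 (0.466 to 14.1). All of these intervals include 1, so a lower level in members is not shown. S100a8, Cd3d, Cd79a and Pf4 were at 0 in the members of both libraries, and Ppbp was at 0 in vehicle members.

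**Figure D3:**
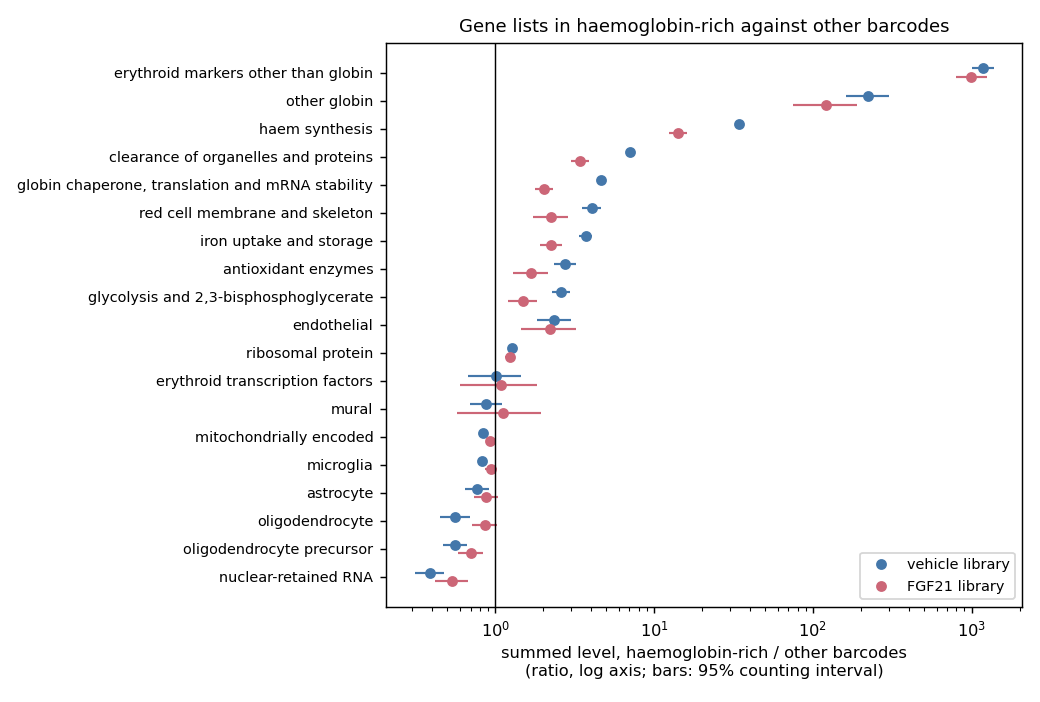
Ratio of the summed level of each gene list in haemoglobin-rich to other barcodes of the same library on a log axis, with 95% counting intervals; the line marks 1. Erythroid and haem lists lie far to the right, and the microglia, astrocyte, oligodendrocyte, precursor and mural lists lie between 0.559 and 1.12, with the endothelial list at 2.35 and 2.20.

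The tdTomato reporter, the basis of the sort, was found in 1 of 129 vehicle members with 2 UMIs and in 1 of 49 FGF21 members with 1 UMI. Among the other barcodes 552 of 2794 and 697 of 2406 had a UMI. Thinned to 500 UMIs, the shares were 1.06% (0.0269 to 5.79) of members against 3.42% of others in vehicle and 2.94% (0.0744 to 15.3) against 3.11% in FGF21. Most of the thinned UMIs of a member are globin, so these shares are not of equal depth in other RNA. Per non-globin UMI the level was 46.0 CPM in members against 69.8 in others in vehicle and 43.7 against 74.6 in FGF21. With 2 and 1 UMIs behind the member values, no difference in either direction was detectable.

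Members differed among themselves in how much RNA accompanied globin. In vehicle, 1 barcode had a globin share of 20 to 50%, 72 had 50 to 80% and 56 had 80% or more. In FGF21 the counts were 4, 35 and 10. These ranges cut a continuous share and are not types. The median vehicle member had 1671.5 UMIs and 352.5 genes in the middle range and 524 UMIs and 63.5 genes in the highest. Since the ranges were cut on globin, non-globin UMIs per globin UMI had to be lower in the highest range, and their ratio between the ranges was 0.420. Single genes were read against that value.

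Transcripts differed in how their number per globin UMI compared between the ranges. In vehicle Csmd2 had 8.44 UMIs per 1000 globin UMIs in the middle range and 9.08 in the highest, a ratio of 1.08 (0.936 to 1.24). Ftl1 had 1.76 and 2.35, a ratio of 1.34 (0.998 to 1.78), and Tpt1 2.28 and 2.26. Alas2 was lower, at 9.27 and 5.17, a ratio of 0.558 (0.470 to 0.660), and Ube2l6 was at 0.629 (0.458 to 0.851), both still above the ratio of all non-globin UMIs. Bpgm had 2.00 and 0.150, a ratio of 0.0752 (0.0241 to 0.179). Gpx1 had 85 UMIs in the middle range and 0 in the highest, and Rsad2 38 and 0. Pabpc1 was at 0.140, Tent5c at 0.158, Cd24a at 0.119, Slc25a37 at 0.213 and Mkrn1 at 0.248. Of the 20 genes with the highest ratios, 5 had an interval wholly above that of all non-globin UMIs (Alas2, Csmd2, Ube2l6, Sec61g and Slco1a4) and 6 wholly below it, among them Mkrn1, Rsad2, Gda, Cd24a and Bpgm.

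**Figure D4:**
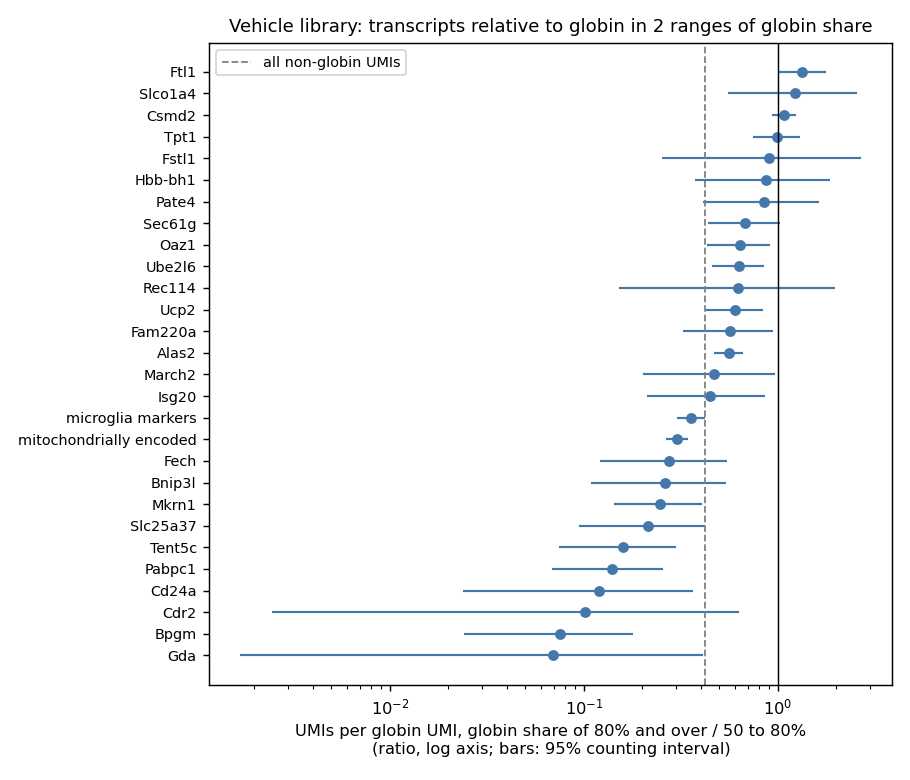
Ratio of UMIs per globin UMI between vehicle members with a globin share of 80% and over and those of 50 to 80%, on a log axis with 95% counting intervals; genes with 0 UMIs in the upper range are left out. Ftl1 and Csmd2 lie at 1.34 and 1.08, and Bpgm at 0.0752, beside a dashed line for all non-globin UMIs at 0.420.

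Brain cell transcripts were read against the same ratio of 0.420. Microglia markers had 13.8 per 1000 globin UMIs in the middle range and 4.93 in the highest, a ratio of 0.358 (0.302 to 0.423), an interval that includes it. Mitochondrially encoded genes were below it at 0.303 (0.266 to 0.343) and ribosomal protein genes above it at 0.550 (0.475 to 0.635). The FGF21 library had 10 barcodes and 2590 globin UMIs in the highest range, where the ratio of all non-globin UMIs was 0.328 (0.301 to 0.357). There Csmd2 had 19 UMIs, at 0.643 (0.382 to 1.02), and Alas2 had 3, at 0.222 (0.0452 to 0.661). The interval of Csmd2 lay above the ratio of all non-globin UMIs, as in vehicle, and that of Alas2 included it. The vehicle member with the lowest globin share, 27.9%, held 150 microglia UMIs among its 2629 non-globin UMIs, more non-globin UMIs than any other member.

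The FGF21 and vehicle members were compared as 2 libraries, each of pooled mice. Of 458 genes with at least 20 UMIs in members, 46 were at least 2-fold higher in FGF21 (10%) and 59 at least 2-fold lower (12.9%). The median log2 ratio was -0.01 per non-globin UMI and 0.78 per globin UMI, a shift set by the lower globin share of FGF21 members, and a gene is read against these medians. Per non-globin UMI, Alas2 was at 0.388 (0.329 to 0.455), Ube2l6 at 0.356 (0.257 to 0.485) and Pabpc1 at 0.321 (0.215 to 0.466). Csmd2 was at 0.769 (0.682 to 0.865) and Isg20 at 0.688 (0.417 to 1.10). Globin itself was at 0.578 on the same scale, as the lower globin share sets. The red cell lists ranged from 0.405 (0.352 to 0.463) for haem synthesis to 0.916 (0.447 to 1.79) for transcription factors. Per globin UMI, haem synthesis was at 0.700, clearance at 0.951, membrane at 0.949, iron at 1.08, glycolysis at 1.20 and antioxidant genes at 1.27. These values lay on both sides of 1, but all lay below the median of the measured genes on that scale. Lists of other cells moved with the library as well. Per non-globin UMI, oligodendrocyte markers were at 2.67 (2.01 to 3.56), astrocyte markers at 1.86, oligodendrocyte precursor markers at 1.83, nuclear-retained RNAs at 1.48 and microglia markers at 0.758. The part of RNA from other cells in the difference between the libraries was not tested.

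Of the 5 lowest genes, Cd24a was at 0.122 (0.0323 to 0.330), Tent5c at 0.141 (0.0716 to 0.254), Ube2o at 0.150 (0.0296 to 0.472) and Slc25a37 at 0.174 (0.0812 to 0.333). The fifth, the pericyte gene Rgs5, had 25 UMIs in vehicle members and 0 in FGF21 members, and its level in the other barcodes was 769 CPM in vehicle and 135 CPM in FGF21. The 5 highest were Mag, a myelin glycoprotein, at 7.59 (2.45 to 31.2), Tspan7, a tetraspanin, at 5.38, Olfm2, an olfactomedin, at 4.01, Nnat, or neuronatin, at 3.93 and Rps26, a ribosomal protein, at 3.80. All 5 of these were also higher in the other FGF21 barcodes than in the other vehicle barcodes. Mag was at 328 against 149, Tspan7 at 745 against 497, Olfm2 at 527 against 273, Nnat at 887 against 501 and Rps26 at 494 against 400 CPM. Alas2 was lower in the other FGF21 than in the other vehicle barcodes, at 6.13 against 15.3 CPM. Isg20 was at 3.03 against 3.65 CPM there. Bpgm and Csmd2 went the other way, at 57.8 against 41.6 and 75.1 against 42.4 CPM. Levels of Cd24a, Tent5c, Ube2o and Slc25a37 in the other barcodes are not given here. Per globin UMI, Alas2 was at 0.671, Cd24a at 0.212 and Tent5c at 0.245. Treatment and library cannot be told apart in these values.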

How the data were processed

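Both libraries were made on the BD Rhapsody platform. The deposited values were UMI counts per barcode and gene that the file headers attribute to the BD WTA Rhapsody Analysis Pipeline, version 1.9.1. Reads were placed on GRCm38, per the submitters' processing notes; the annotation used is not given in the sources used here. The members and gene lists were chosen with earlier results of these data known. 2 vehicle barcodes under 100 UMIs were left out. No doublet caller was run. UMIs were summed over barcodes per 1000000 non-globin UMIs. Ratios had exact conditional binomial 95% intervals and shares exact Clopper-Pearson intervals. No p-value was computed, since barcodes are not replicates. For log2 ratios, a gene with 0 UMIs in the other barcodes was given a floor of 3 there, and a gene with 0 UMIs in members a smaller value. Ratios and intervals used no floor. UMIs from PCR copies are merged, but intervals still cover counting error only.

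Genes named were the 6 markers, the 15 most abundant in members (mitochondrial genes aside), the 20 highest ratios (the lower of the 2 libraries, at least 20 UMIs, 3 in each library, 10 barcodes, at most 20% in 1 barcode), the 10 lowest ratios among genes with 50 predicted UMIs, the 4 most abundant measured genes of each list, and the 5 highest and 5 lowest FGF21 to vehicle ratios. List members with few UMIs, the genes at 0 and Eef1a1 were named after their values were seen. The steps were checked on simulated counts. Some genes that the rule names are not reported here. Alternatives changed the globin and UMI thresholds, the denominator, the weighting of barcodes and the comparison barcodes. Positions came from GENCODE vM21 and promoters from RefSeq GRCm38.p6. Python 3.11.15, pandas 2.3.3 and scipy 1.17.1 were used.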

Additional observations from a re-analysis of the deposited data

How the results depend on the processing

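No paired analysis was possible because each treatment had 1 library. The counts of genes and lists held within 1.5 times when the globin threshold was 10% or 50%, when 500 UMIs were required, when the other barcodes were restricted, and without the deepest member. The denominator decided more. Over all UMIs, vehicle members had 47 genes higher and 546 lower, FGF21 members 19 and 165, and 3 lists in each library, in place of 10, were 2-fold higher. The 10 in FGF21 include the neutrophil and platelet lists, which rest on 1 and 2 UMIs. Over all UMIs ratios also turned below 1 in vehicle for antioxidant enzymes (0.771), glycolysis (0.727), endothelial genes (0.659) and Fth1 (0.745). In FGF21 the same held for iron genes (0.906), membrane genes (0.900), the translation and chaperone list (0.818), endothelial genes (0.884), Ncoa4 (0.841), Vtn (0.919) and Mag (0.855). Globin in the denominator lowers every other gene of the members by construction. Glycolysis in vehicle was 0.988 without Bpgm, an alternative chosen after seeing the data. With every barcode weighted alike, 124 genes in vehicle and 31 in FGF21 were lower. Between the libraries' members, 46 higher and 59 lower genes became 123 and 23 over all UMIs, 76 and 91 with equal weights, and 178 and 15 over globin UMIs, the last chosen after seeing the data. With 500 UMIs required, Alas2 in vehicle members of 80% globin and over was at 6.01 per 1000 globin UMIs.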
